A study of Mus musculus with 8 samples.

Results

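The transcripts described here belong to the Nodal and activin branch of TGF-β family signalling in mouse embryonic stem (mES) cells. They are the ligand genes Inhbb and Nodal, the inhibitors Lefty1 and Lefty2, the co-receptor Tdgf1, the receptors Acvr1b, Acvr2a and Acvr2b, and the intracellular proteins Smad2 and Smad7. All 10 were matched by gene symbol, among 13558 transcripts in the table. The genes were chosen with their KO against WT values in these libraries already known, and Inhbb was also a transcript whose 3′UTR the study placed in a reporter. The difference between the genotypes is therefore described for these 10 genes without a test.

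Polyadenylated RNA of male C57BL/6 mES cells was sequenced in 8 libraries, 4 from Trim71 fl/fl cells (WT in the labels) and 4 from Trim71 -/- cells (KO), to ask which transcripts change when Trim71, an RNA-binding ubiquitin ligase gene, is lost. All cells carried a tamoxifen-inducible Cre recombinase expressed from Rosa26, and mutation was induced with 500 nM 4-OHT over 2 days and followed by at least 7 further days of culture. All cells grew with serum and LIF, the cytokine that keeps mES cells undifferentiated, and were sorted on the surface antigen SSEA-1 before lysis. Per the study's methods, control cells received DMSO, the solvent, in place of 4-OHT. Those methods give a lower dose of 4-OHT and a shorter culture than the labels, whose values are the ones printed here. The libraries came from a pair of clones, with 3 KO and 2 WT libraries from clone E3 and 1 KO and 2 WT libraries from clone 1, so each genotype represents these clones only. Cre removes exon 4 of Trim71 and leaves the other exons, whose reads still count towards the gene.

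Nodal and the activins are secreted dimers that bind a type II receptor (Acvr2a or Acvr2b), which then activates a type I receptor such as Acvr1b. Nodal also needs a membrane-anchored co-receptor, Tdgf1 (Cripto). The activated type I receptor phosphorylates Smad2 and Smad3, which enter the nucleus with Smad4 and act there with partners such as Foxh1. Lefty1 and Lefty2 are secreted antagonists that are themselves switched on by Nodal signals, and Smad7 is an inhibitory Smad that shuts down activated receptors. In the mouse embryo the pathway maintains the epiblast and induces mesendoderm, and mES cells make several of its components.

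The 3′UTRs were examined for the letters AGCACTT, the complement of the seed of the miR-290 and miR-302 families, which are abundant miRNAs of embryonic stem cells. These sequences are shown because the Lefty genes and Inhbb share this stretch. A mature miRNA of each family is given from RefSeq (GRCm38), with its seed (bases 2 to 8) in capitals.
mmu-miR-294-3p: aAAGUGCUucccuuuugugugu
mmu-miR-302b-3p: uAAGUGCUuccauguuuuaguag
The matches in the 3′UTRs lay at chr1:119416140-119416146 on the minus strand (Inhbb), at chr1:180938213-180938219 on the plus strand (Lefty1) and at chr1:180897917-180897923 on the plus strand (Lefty2) of GRCm38 (mm10), and each is printed with flanking bases and the match in capitals.
Inhbb: cacaccacaatAGCACTTgcaggtctacg
Lefty1: actgtatgcgaAGCACTTacatgtataga
Lefty2: cacccagtttaAGCACTTacatgggtaaa
Of the 10 genes, 4 held the letters on the transcript strand of the annotated 3′UTR, the fourth being Smad2 with 3 matches. Over 12902 annotated 3′UTRs of at least 30 bases, 16.6% held them. Among 3′UTRs of similar length (at least 80% as long and at most 25% longer) the share was 4.63% for Lefty1, 15.4% for Lefty2, 20.8% for Inhbb and 60.9% for Smad2. The 2143 transcripts with a match had a median log2 fold change (KO minus WT) of -0.08, and the 10759 without one of 0.01. These groups were not matched for length or GC, so nothing is read from the gap. The 3 genes printed above had log2 fold changes of both signs, given below, and a letter match says nothing of use by a miRNA. miRNA levels were not analysed here.

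Trim71 served as a check of the labels. It ranged from 247 to 793 normalized read counts in the KO libraries and from 1988 to 2782 in the WT libraries, a log2 fold change of -2.39 ± 0.35 (SE). The library totals recovered from the table ran from 7576455 to 27970599 reads, and the 10 genes had between 80 and 16334 reads per library. KO replicate 3 stood apart in base composition. Its median deviation on the log2 scale was -0.74 over the 10% of transcripts poorest in GC and 0.33 over the richest 10%, against -0.03 to 0.25 and -0.18 to 0.11 in the other libraries. ES cell markers (Pou5f1, Nanog, Sox2, Zfp42, Esrrb) were high in every library, with summed levels of 44454 to 55170 in KO and 41445 to 50360 in WT.

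**Figure D1:**
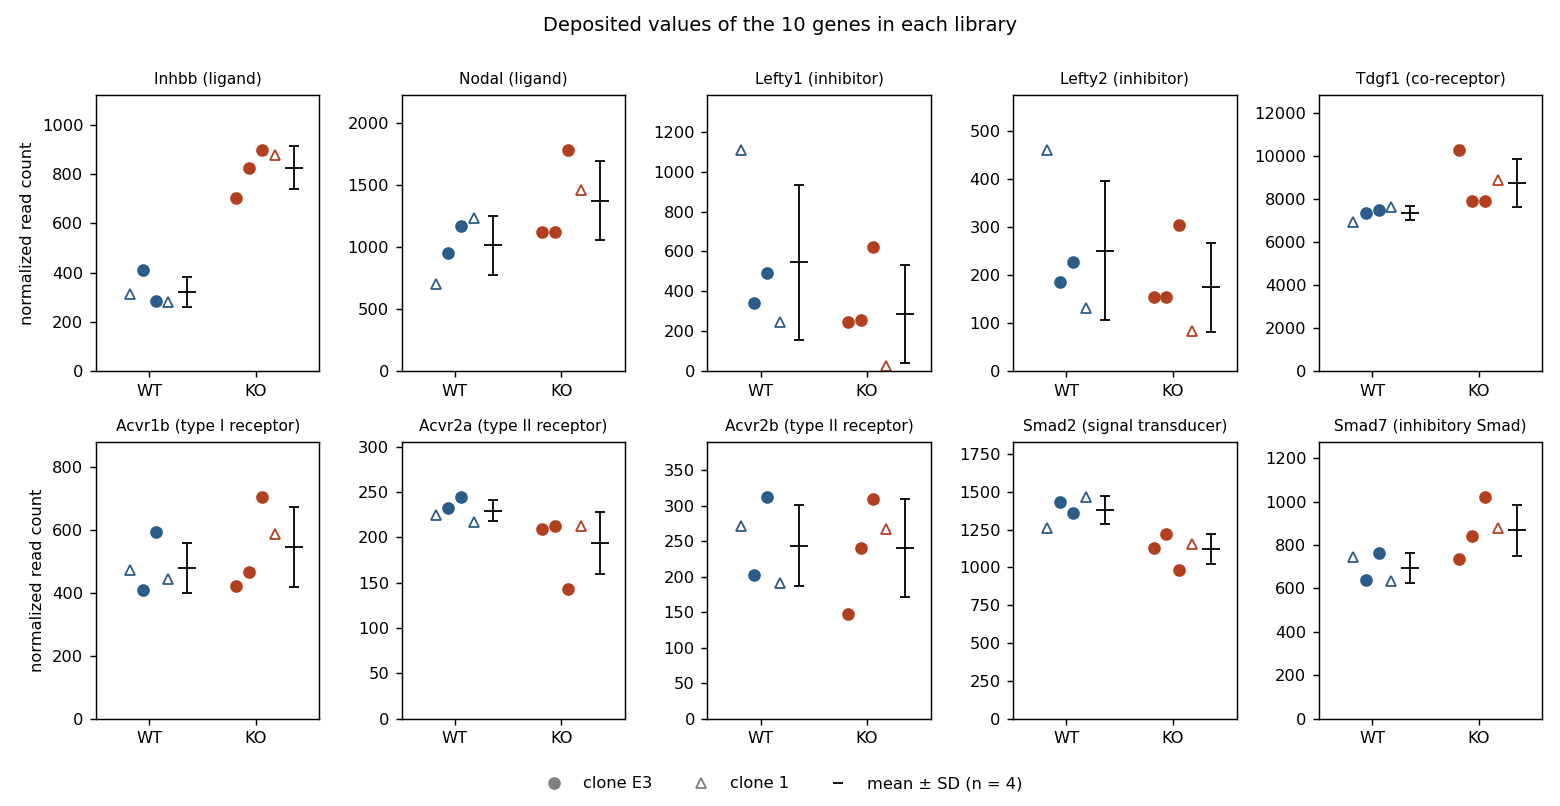
Normalized read counts of the 10 genes in each library, with filled circles for clone E3, open triangles for clone 1 and the mean ± SD of each genotype beside the points. The 4 KO values of Inhbb (702 to 899) lay above its 4 WT values (280 to 411), whereas Lefty1 spread from 27.2 to 621 in KO and from 245 to 1109 in WT.

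Inhbb, which encodes the βB subunit of activin B and inhibin B, had the highest log2 fold change of the set. Its normalized read counts were 702, 827, 899 and 878 in the KO libraries (replicates 1 to 4, in this order throughout) and 312, 411, 284 and 280 in the WT libraries. The lowest KO library thus lay well above the highest WT library. The KO mean was 827 ± 88.2 and the WT mean 322 ± 61.0 (SD, n = 4 each). The log2 fold change was 1.35 ± 0.17 (SE), a 2.55-fold higher level. Within clone E3 the log2 difference was 1.23, and in clone 1, with a single KO library, it was 1.57. KO was also higher on each of the 3 days that had a library of both genotypes, by 1.01, 1.66 and 1.64 on days 3, 4 and 5.

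Inhbb was the 1 member of 10 that passed the study's criterion, an unadjusted p under 0.05 with a fold change of at least 1.5. Over all transcripts, 4.25% passed it in either direction. Since the genes were chosen with this contrast known, nothing is read from that count. The log2 fold change of Inhbb was 1.11 to 1.53 over the 23 settings of the fit. The gene lies at chr1:119415465-119422248 on the minus strand, and its exons overlapped no other annotated gene.

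Nodal, the other ligand gene of the set, was at 1119, 1124, 1785 and 1464 normalized read counts in KO and 706, 954, 1169 and 1235 in WT. The groups overlapped, as WT replicates 3 and 4 lay above KO replicates 1 and 2. Its log2 fold change was 0.43 ± 0.25 (SE), and the values over all settings were 0.29 to 0.55. On days 3, 4 and 5 the KO library was higher by 0.24, 0.61 and 0.24. With day in place of clone as a term, over the 6 libraries of those days (day as a block), the value was 0.36 with a standard error of 0.12. Nodal lies at chr10:61417972-61425338 on the plus strand.

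Lefty1 and Lefty2, the feedback inhibitors, were the most variable of the 10 genes. Lefty1 was at 248, 255, 621 and 27.2 in KO and at 1109, 342, 490 and 245 in WT. It was highest in WT replicate 1 and lowest in KO replicate 4, both of clone 1, and KO replicate 3 lay above 3 of the WT libraries. The coefficient of variation was 85.6% within KO and 71.0% within WT, against 10.7% and 19.0% for Inhbb. On the log2 scale KO differed from WT by -1.68 ± 0.88 (SE). That value rested on single libraries, as it was -0.27 without KO replicate 4, -1.11 without WT replicate 1 and -2.26 without WT replicate 2.

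Lefty2 followed nearly the same order of libraries. Its values were 154, 154, 304 and 84.2 in KO and 460, 186, 226 and 131 in WT. Again WT replicate 1 and KO replicate 3 were the highest and KO replicate 4 the lowest. Fitted over all libraries, the log2 fold change was -0.60 ± 0.50 (SE). It was -0.09 without KO replicate 4, again the value of clone E3 alone. It was -0.25 without WT replicate 1 and -0.86 without KO replicate 3. With day as a block it was -0.16, and 0.09 when voom on the recovered reads was used with that block.

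As deposited, the difference of Lefty1 between the genotypes was -4.21 on the log2 scale in clone 1 and -0.27 in clone E3, a gap that did not hold after adjustment (limma adjusted p = 1). The authors corrected the values for batch before deposit, and recovery of whole reads showed that correction as a shift between the clones (the clone correction below). With it undone, the Lefty1 values were 126, 132, 499 and 149 in KO and 1231, 220, 368 and 367 in WT, so the low value of KO replicate 4 rose from 27.2 to 149. The log2 fold change over all libraries was then -1.09. On days 3, 4 and 5 the KO library differed from its WT partner by -0.43, 0.34 and -3.13 as deposited, and by -0.73, 0.44 and -1.29 with the correction undone. Voom with day as a block, on the recovered reads, gave -0.22.

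**Figure D2:**
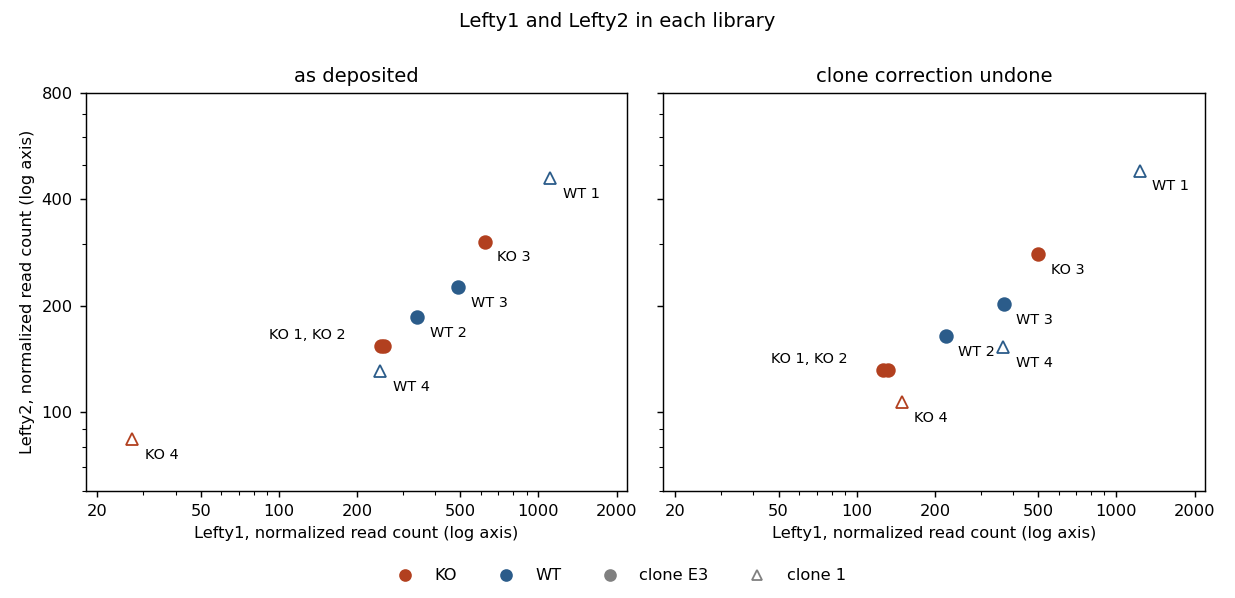
Lefty1 (x) and Lefty2 (y) in normalized read counts on log axes, with 1 point per library, as deposited on the left and with the clone correction undone on the right. The libraries kept nearly the same order in both genes, with WT replicate 1 at the top, and KO replicate 4 moved from 27.2 to 149 for Lefty1 when the correction was undone.

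Whether members of the pathway moved together from library to library was tested after each genotype's mean had been subtracted, which does not use the difference between genotypes. Lefty1 and Lefty2 had a Pearson r of 0.91 over 8 libraries, with an exact two-sided permutation p of 0.00174 (the smallest that reordering within genotypes can give, adjusted p = 0.0139 over 8 pairs). Spearman's rho was 0.90, with an exact permutation p of 0.00347 and an adjusted p of 0.0278. Without the libraries farthest from the median of Lefty1 (KO replicates 3 and 4) r was 0.94. With the clone correction undone r was 0.94, with an exact permutation p of 0.0365 and an adjusted p of 0.292, so the call was lost although r did not fall. With clone effects removed as well, r was 0.93 (permutation p of 0.0122, adjusted p = 0.0972). Values left after a clone term are not freely exchangeable within a genotype, so this p is approximate. The same limit holds for the p-values on the deposited values, from which a clone shift had been removed. With 1 library left out r was 0.87 to 1.00. These permutations move each library on its own, although day pairs 6 of them. With the KO and WT library of a day moved together, 6 rearrangements remained, and the exact permutation p was 0.167, the smallest they can give, so the pair cannot pass when the day pairs are kept. The clones hold 5 and 3 libraries, too few for values within a clone.

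The transcripts of Lefty1 and Lefty2 were 91.5% identical over 1155 aligned bases, and 4.80% of the 100-base stretches of Lefty1 (the read length) also occurred in Lefty2. The genes lie near each other on chromosome 1, at chr1:180935022-180938400 and chr1:180893108-180899103, both on the plus strand. Their separate levels are thus uncertain by the reads that match both, whose part in the correlation was not tested.

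The other 7 pairs gave no adjusted p under 0.05. They were Nodal with Lefty1, Lefty2, Tdgf1 and Smad7, and Inhbb with Nodal, Smad7 and Fst. Pearson's r ran from -0.28 to 0.34 (smallest adjusted p = 0.887, exact permutation) and Spearman's rho from -0.19 to 0.43 (adjusted p = 0.854, exact permutation). Single libraries moved these values widely. Nodal and its target Lefty1 had an r of -0.23, which was -0.78 without KO replicate 3, -0.51 without KO replicate 3 and WT replicate 1, and 0.20 with the clone correction undone. With 1 library left out, r of the 7 pairs ran from -0.91 (Nodal with Lefty2, without KO replicate 3) to 0.82 (Inhbb with Smad7, without WT replicate 2).

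The genotype by clone term was a further contrast that the choice of genes had not used. Over all transcripts, 2.59% had an unadjusted p under 0.05 for this term. Of the 10 genes only Lefty1 did, with a difference between the KO effects of clone E3 and clone 1 of 3.94 on the log2 scale (standard error 1.19), which did not hold after adjustment (limma adjusted p = 1). That difference was 1.68 with a standard error of 1.29 once the clone correction was undone, and 1.58 with a standard error of 1.41 with voom. Clone 1 had a single KO library, whose spread is assumed to equal that of the others.

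Tdgf1 encodes Cripto, the anchored co-receptor of Nodal, and was by far the most abundant of the 10 transcripts. It was at 10298, 7911, 7910 and 8894 normalized read counts in KO and 6928, 7363, 7488 and 7642 in WT. The KO values all lay above the WT values, by a narrow margin between 7910 and 7642. KO minus WT on the log2 scale was 0.24 ± 0.13 (SE), or 1.18-fold. With day as a block the difference was 0.13 with a standard error of 0.10. With the clone correction undone the groups overlapped, at 7650 to 10039 in KO and 7103 to 7902 in WT. Tdgf1 lies at chr9:110939603-110946158 on the minus strand.

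The type I receptor gene Acvr1b was at 421, 467, 704 and 587 in KO and 473, 409, 593 and 444 in WT. The highest value of each genotype came from its day 4 library, replicate 3, and the groups overlapped. This gave a log2 fold change of 0.17 ± 0.21 (SE), which was 0.05 without KO replicate 3 and 0.35 without WT replicate 3. On days 3, 4 and 5 the KO library was higher by 0.19, 0.25 and 0.40. With day as a block the value was 0.28 with a standard error of 0.10. The gene lies at chr15:101174067-101213684 on the plus strand.

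Of the type II receptor genes, Acvr2b was at 147, 240, 310 and 267 in KO and 271, 202, 312 and 191 in WT. The means were nearly the same, at 241 ± 69.1 and 244 ± 57.4 (SD, n = 4 each). Fitted over all libraries, the log2 fold change was -0.03 ± 0.29 (SE), and its sign changed among the settings, from -0.19 to 0.24. Acvr2b lies at chr9:119402118-119434995 on the plus strand.

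Acvr2a, the other type II receptor gene, was at 209, 212, 143 and 212 in KO and 224, 232, 244 and 217 in WT. All KO values lay below all WT values, with KO replicate 3 far below the rest and the other 3 KO libraries just under the lowest WT library. KO minus WT on the log2 scale was -0.25 ± 0.17 (SE). Without KO replicate 3 it was -0.13, and with the clone correction undone the groups overlapped, at 126 to 229 in KO and 215 to 241 in WT. With the GC and length trend of each library removed, it was 0.03. The transcript is poor in GC (39.9%) and is counted without strand, and 446 bases of its exons overlap those of Orc4, whose reads cannot be told apart there. Acvr2a lies at chr2:48814109-48903269 on the plus strand.

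Smad2, the transducer that the type I receptor phosphorylates, was at 1131, 1220, 981 and 1157 in KO and 1262, 1435, 1361 and 1464 in WT. All KO values were under all WT values, and this was also so with the clone correction undone, at 899 to 1239 against 1279 to 1547. The means were 1122 ± 101 in KO and 1380 ± 90.4 in WT (SD, n = 4 each), a log2 fold change of -0.30 ± 0.12 (SE). With day as a block the value was -0.35 with a standard error of 0.10. It was -0.09 once the GC and length trend of each library had been removed. The annotated transcript is long, at 8089 bases, and 44.9% GC. Smad2 lies at chr18:76241580-76310963.

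Smad7, the inhibitory Smad, was at 736, 840, 1020 and 877 in KO and 747, 637, 763 and 636 in WT. The groups overlapped only through KO replicate 1, which lay below WT replicates 1 and 3. This gave a log2 fold change of 0.32 ± 0.15 (SE), and 0.24 to 0.46 over all settings. On days 3, 4 and 5 the KO library was higher by 0.40, 0.42 and 0.46. With day as a block the value was 0.43 with a standard error of 0.09. Smad7 lies at chr18:75367529-75395935.

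Of the 10 genes, 2 (Inhbb and Tdgf1) had all KO libraries above all WT libraries, as did 5.48% of all transcripts. Another 2 (Acvr2a and Smad2) had them all below, as did 4.62% of all transcripts. The groups of the remaining 6 overlapped. These counts and shares are for the deposited values. With the clone correction undone Tdgf1 and Acvr2a overlapped as well, and only Inhbb and Smad2 stayed apart. The median log2 fold change was 0.07 over the 10 genes and 0.00 over all transcripts, with 5 positive and 5 negative. These counts describe the chosen genes and were not tested.

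**Figure D3:**
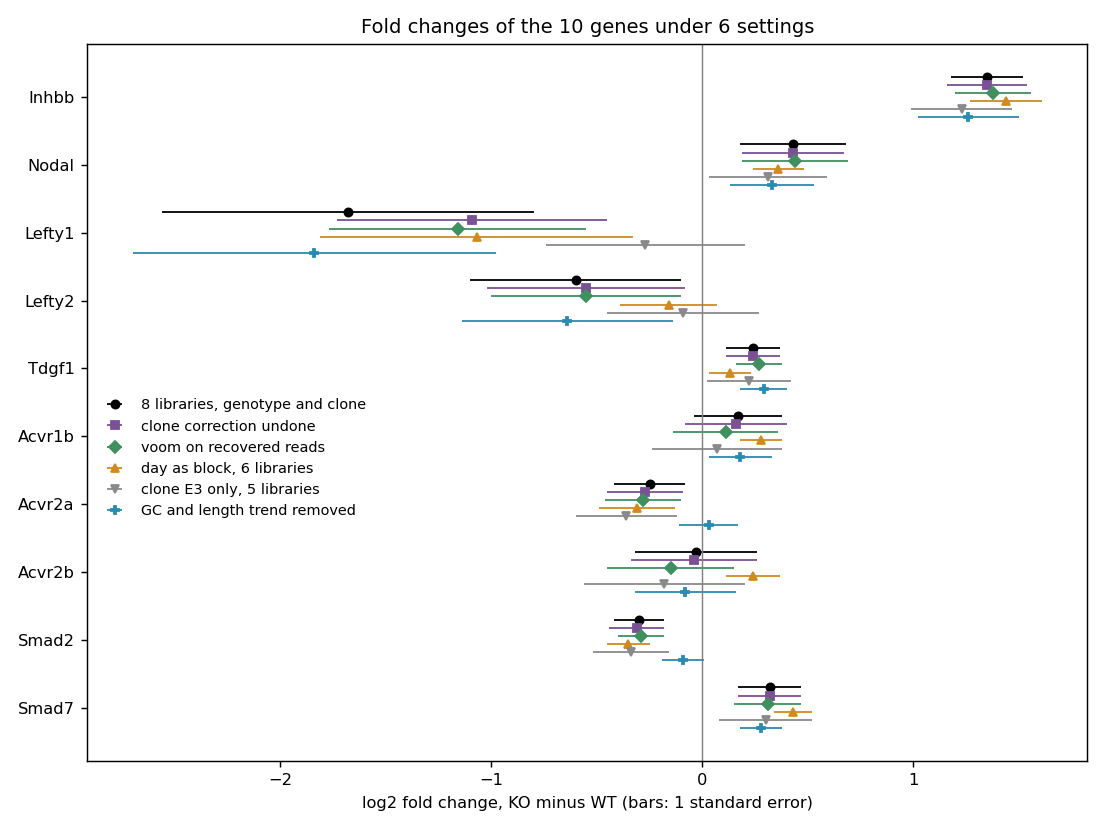
Log2 fold changes (KO minus WT) of the 10 genes with 1 standard error, under the fit with genotype and clone and 5 other settings. Inhbb lay between 1.23 and 1.44, Lefty1 ran from -1.84 to -0.27, and Acvr2a and Smad2 were at 0.03 and -0.09 once the GC and length trend was removed.

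Levels were compared between genes per kb of the annotated transcript. In WT cells the normalized read count per kb was 3807 ± 159 for Tdgf1 and 485 ± 114 for Nodal (SD, n = 4 each). Below them came Lefty1 at 337 ± 240, Smad2 at 171 ± 11.2, Smad7 at 163 ± 16.1, Acvr1b at 109 ± 18.1 and Lefty2 at 101 ± 58.6. Acvr2b (76.8 ± 18.1), Inhbb (75.7 ± 14.3) and Acvr2a (40.3 ± 2.02) were the lowest. Of the neighbours in this order, Tdgf1 and Nodal, Smad7 and Acvr1b, and Inhbb and Acvr2a were separated by more than their SDs together, and the others were not. In KO cells Inhbb was at 194 ± 20.7 per kb, between Smad7 (203 ± 27.5) and Lefty1 (178 ± 152). 1 transcript per gene set the length, so these levels depend on the isoform used.

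**Figure D4:**
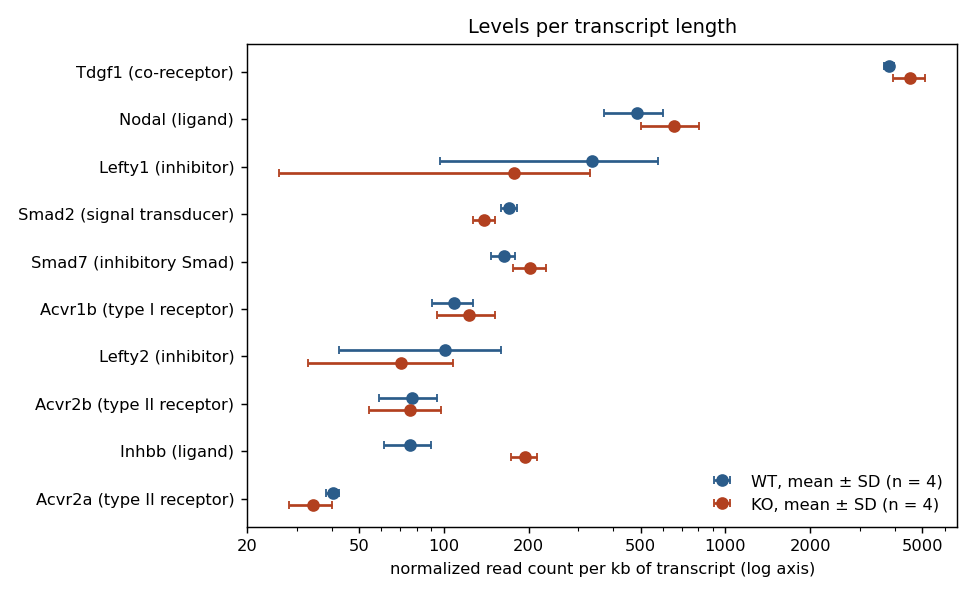
Normalized read count per kb of transcript on a log axis, as mean ± SD over 4 libraries of each genotype, ordered by the WT level. Tdgf1 was the highest gene in both genotypes, and Inhbb was at 75.7 in WT and 194 in KO.

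The transcripts whose log2 values followed Inhbb most closely over the 8 libraries were sought among 11059 others with a mean of at least 50. Among them were Arfip2 and Sema4a (r = 0.985 each), Pcyox1l (0.984) and Pqlc1 (0.983). These 4 were higher in every KO library than in any WT library, with log2 fold changes of 0.42 for Pcyox1l to 0.93 for Pqlc1. Of the pathway members, Smad7 (r = 0.73), Tdgf1 (0.61) and Nodal (0.58) were nearest to Inhbb, and Smad2 was the farthest at -0.81. These likenesses include the difference between genotypes and are a description.

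The other genes of the pathway came from a list of 44, of which 36 were in the table. None passed the criterion in limma's test, in either direction, where 4.25% of all transcripts did. At an unadjusted limma p under 0.05 there were 3 (Gdf3, Zfyve9 and Eomes), where 9.09% of all transcripts had such a p. Their adjusted p-values were 0.537, 0.446 and 0.527, and the smallest adjusted p of any transcript was 0.275. Gdf3 had an unadjusted p under 0.05 in 12 of the 23 settings, Zfyve9 in 20 and Eomes in 11. With day as a block Gdf3 no longer did, and with voom and that block neither Gdf3 nor Eomes did. With day as a block 2 genes passed the criterion, Pmepa1 and Usp9x. Voom on the recovered reads gave 0 without the block and the same 2 genes with it. Without WT replicate 3 there were 4, namely Inhbc, Tgfbr3, Pmepa1 and Eomes. Over all transcripts the count past the criterion was 1015 with day as a block, over 1.5 times that of the main fit, and 415 transcripts passed in both. The blocked fit also leaves out KO replicate 1 and WT replicate 1, so the rise cannot be credited to the block alone.

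Among ligand genes other than Inhbb and Nodal, which had positive values, 5 of 8 were in the table. All 5 had negative log2 fold changes that did not pass. Gdf3, which encodes a relative of Nodal that uses the same receptors, was the most abundant. It was at 1268, 1334, 1241 and 975 in KO and 1841, 1521, 1371 and 1510 in WT, with no overlap and a log2 fold change of -0.39 ± 0.16 (SE). Inha, the α subunit that pairs with the product of Inhbb in inhibin B, was low, with means of 16.6 ± 3.21 in KO and 22.1 ± 8.21 in WT (SD, n = 4 each). Inhbc, Gdf1 and Gdf11 had group means of 16.2 to 31.8. The log2 fold changes of Inha, Inhbc, Gdf1 and Gdf11 were -0.34, -0.31, -0.35 and -0.08. Their standard errors were 0.31, 0.29, 0.74 and 0.26, so the signs of these low transcripts are uncertain.

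Among receptors, Acvr1 and Tgfbr1 had log2 fold changes of -0.15 and -0.35 with standard errors of 0.24 and 0.25. Tgfbr1, a type I receptor for TGF-β, was lowest in KO replicate 3, at 229. Tgfbr2 had a value of 1.22 with a standard error of 1.13, and WT replicate 1 was at the floor of 1 that the authors set. Among extracellular regulators the most abundant were Pcsk6 and Furin, convertases that cleave ligand precursors, and Bambi, a pseudoreceptor. Their log2 fold changes were 0.11, -0.08 and 0.21 (standard errors 0.30, 0.32 and 0.13). None of the 7 regulators in the table passed.

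Of the 17 Smads, partners and regulators, 8 had positive and 9 had negative values, and none passed. Zfyve9 (SARA), which presents Smad2 to the receptors and was named after its values were seen, had the smallest p of the list, with means of 144 ± 13 in KO and 198 ± 12.6 in WT (SD, n = 4 each) and a log2 fold change of -0.47 ± 0.12 (SE). Usp9x, a deubiquitylase of Smad4, Tgif1, a corepressor of Smad2, and Trim33, a ubiquitin ligase that binds Smad2 and Smad3, were the most abundant. Usp9x was at 2816 in KO replicate 3, against 6560 to 8168 in the other KO libraries and 7588 to 10388 in WT. Its log2 fold change was -0.58 ± 0.36 (SE), -0.28 without KO replicate 3 and -0.20 with the GC and length trend removed. Those of Tgif1 and Trim33 were 0.18 and -0.38 (standard errors 0.12 and 0.27). Trim33 was also low in KO replicate 3, at 1260, against 2445 to 2707 in the other KO libraries and 2630 to 3134 in WT.

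Pmepa1, a TGF-β-induced inhibitor of Smad signalling, was singled out after its values were seen. It was at 256, 249, 543 and 451 in KO and 163, 194, 319 and 197 in WT, so that WT replicate 3 exceeded KO replicates 1 and 2. Fitted over all libraries, the log2 fold change was 0.72 ± 0.35 (SE) (limma adjusted p = 0.586). It was 0.39 without KO replicate 4, where clone E3 alone sets the difference, and thus also in clone E3 alone. It passed the criterion in 8 of 23 settings, among them day as a block, where it was 0.77 with a standard error of 0.19 (limma adjusted p = 0.22).

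Of the genes switched on in mesendoderm, 4 of 6 were in the table. Eomes, a T-box factor of early mesendoderm, was at 115, 84.0, 109 and 114 in KO and 69.9, 58.9, 99.0 and 71.4 in WT. The groups overlapped by WT replicate 3 alone, and the log2 fold change was 0.51 ± 0.20 (SE). Foxa2 and T were near the detection limit, with group means of 4.98 to 13.5. Foxa2 and T had a value at the floor in WT replicate 1, and Foxa2 also in WT replicate 4, so their positive values of 1.32 and 1.00 depend on the floor and the clone correction.

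**Figure D5:**
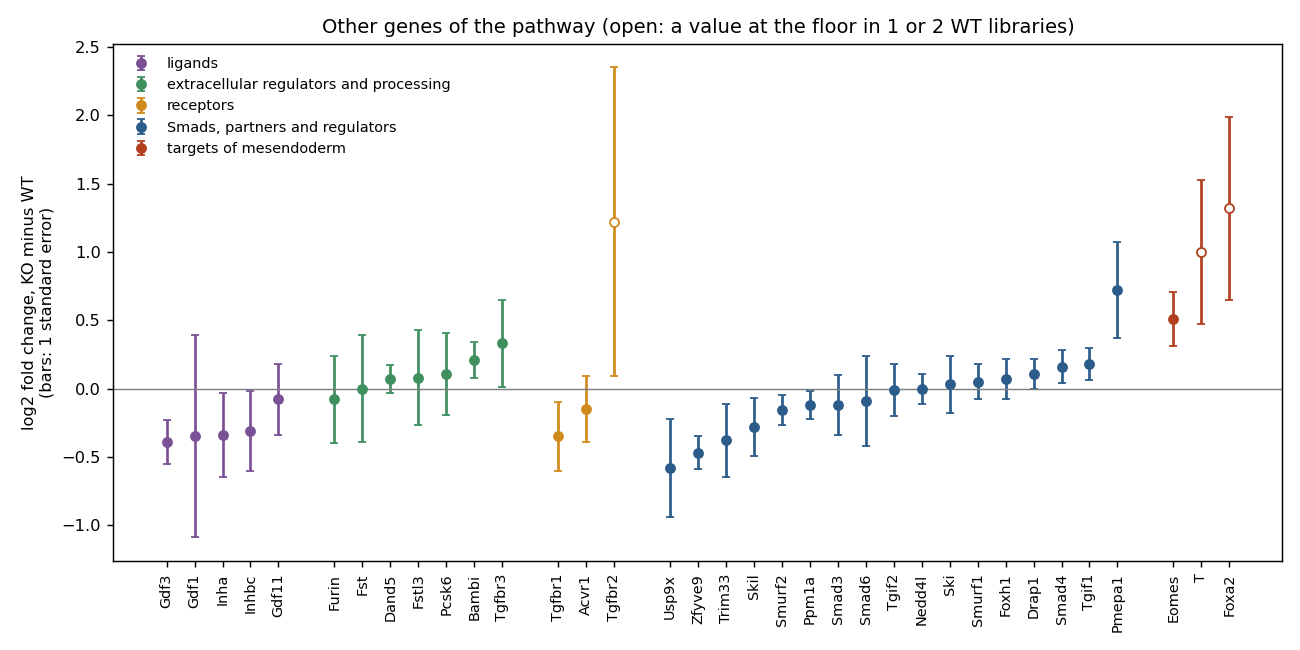
Log2 fold changes (KO minus WT) with 1 standard error for 35 other pathway genes, grouped by role, with open points where 1 or 2 WT libraries were at the floor. The 5 ligand genes lay below 0, from -0.39 (Gdf3) to -0.08 (Gdf11), and the open points Tgfbr2, T and Foxa2 were the highest.

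Markers of other cell types were compared beside these values, and fewer cells of a type cannot be told apart from less RNA per cell in such bulk samples. The 6 primitive endoderm markers (Gata4, Gata6, Sox17, Pdgfra, Dab2, Sox7) were all detected, with summed levels of 271 to 577 in KO and 91.6 to 464 in WT and a median log2 fold change of 1.04, none past the criterion. Gata4, Gata6, Sox17 and Sox7 had positive values (0.74 to 1.79), and Pdgfra and Dab2 negative ones (-0.48 and -0.34). With day as a block Pdgfra and Dab2 passed, at -0.68 and -0.75. Voom with that block also passed Gata4 and Sox7, and the block with the correction undone also passed Sox7. With the correction undone, Gata4 and Sox7 were higher in the KO library of each shared day, so the blocked calls went in both directions. WT replicate 1, which was the highest in Lefty1, was the lowest in Gata4 at 1.72 and was at the floor in Gata6 and Sox17. These low values depend on the clone correction, as Gata4 was at 52.8 in that library with the correction undone, against 40.5 to 148 in the other WT libraries. Of 6 fibroblast markers 4 were in the table (Col1a1, Col1a2, Thy1, Twist1), with sums of 145 to 254 in KO and 102 to 191 in WT. Twist1 alone of them passed, at 0.59 (standard error 0.23, limma adjusted p = 0.527), in 10 of 23 settings. It was 0.28 without KO replicate 4, which is the value of clone E3 alone. The primed epiblast markers Otx2, Pou3f1 and Dnmt3b summed to 2988 to 5387 in KO and 1899 to 6242 in WT, and Fgf5 was not in the table. The part of these markers in the values of the 10 genes was not tested.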

How the data were processed

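Polyadenylated RNA of 8 mES cell libraries was prepared with the Illumina TruSeq RNA kit v2, which does not mark strand, and sequenced as paired 100-base reads. Per the labels and the study's methods, the authors used CASAVA 1.8, TopHat2, Bowtie2 2.2.1 (mm10), Partek 6.6 for counts per RefSeq transcript and DESeq2 for normalization, then corrected for batch, raised values below 1 to 1 and left out transcripts of low level. What they deposited is thus a signal, normalized read counts after an additive correction, and 0 per-sample columns were left unused.

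The methods do not name the batch. Recovery of whole reads gave the correction as 1 shift per transcript, added in clone E3 and subtracted in clone 1. It was unique for 13348 of 13350 transcripts without a value at the floor. Only solutions that give back the deposited values were kept, so the 100% of values given back is by construction and no separate check. On these values the correction was undone and voom was run. The recovery and the fit were tested on simulated data.

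Limma 3.58.1 (R 4.3.3) was fitted on log2(value + 1) over all 13558 transcripts with genotype and clone as terms and Benjamini-Hochberg adjustment. Adding 1 shrinks the fold changes of low transcripts, whereas the clone correction and the floor can enlarge them. Lefty1, for example, was -1.68 as deposited and -1.09 with the correction undone. Members and lists were chosen with earlier results of these data known. Named were the 10 members, Trim71, the ligands, receptors and pathway genes past the criterion, the 3 most abundant genes of each other role, the 5 transcripts most like Inhbb and the cell type markers. A few genes picked this way are not reported here. Covariation was tested by permutation within genotypes over all reorderings (called exact), which is approximate where clone effects had been removed. Transcript features came from GENCODE M21 (GRCm38), with 13462 symbols matched, and the other steps ran in Python 3.11.15 (matplotlib 3.10.9, scipy 1.17.1, pandas 2.3.3, numpy 2.4.6). Nothing says that libraries came from separate cultures, so p-values measure only the spread between them, and intervals of read counts would cover counting error only. A KO and a WT library of the same clone shared each of days 3, 4 and 5. Deviations from the group means correlated at 0.58 to 0.71 in these 3 same-day pairs with the correction undone, and at 0.58, 0.60 and -0.11 as deposited. With the correction undone the 13 other pairs ran from -0.57 to 0.41, with a median of -0.20. Such deviations cancel out within a genotype, so positive same-day pairs push the other pairs down. Day was taken to pair the libraries on the values of the same-day pairs. Alternatives were other pseudocounts, filters, priors, scales, the block by day, each library left out and 4 settings added after seeing the data (clone E3 alone, also with the correction undone, the block with the correction undone, and the GC and length trend of each library removed by a cubic fit). Moving day pairs as units in the permutation was also added then.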

Additional observations from a re-analysis of the deposited data

Results flagged for a closer look

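Of the 20 groups of 4 libraries examined (10 genes, both genotypes), 1 had a library far from the others, where chance gives about 1 in 20. This was Acvr2a in KO replicate 3, the lowest KO library, whose gap to the next library was 0.97 of the group's range on the log2 scale (143 against 209, 212 and 212 normalized read counts). The same library was low over the 10% of transcripts poorest in GC, at -0.74. With the GC and length trend of each library removed, the log2 fold change of Acvr2a was 0.03, against -0.25 as reported. The part of base composition in the value of this single library was not tested.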

How the results depend on the processing

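Fold changes and counts past the criterion were computed under 22 settings besides the one reported, the genotype by clone term under 14, the count of pairs under 4 and each pair's r under 11. The count of members past the criterion was 1 in all of them except without KO replicate 3 (leave-one-out range 1 to 2, the second being Lefty1). Inhbb had log2 fold changes of 1.23 to 1.53 with 1 library left out, and 1.11 in clone E3 with the correction undone. Fold changes without KO replicate 4 and in clone E3 alone are the same by construction, so these settings are not separate checks. The count of other pathway genes past the criterion, 0 as reported, was 1 without a clone term, 1 with the GC and length trend removed, 1 with the block by day on values with the correction undone, and 2 with the block by day, on log2 values or with voom (leave-one-out range 0 to 4). Over all transcripts the count was 315 with a mean of at least 50, 274 on untransformed values, 278 in clone E3, 288 in clone E3 with the correction undone, 1015 with the block by day, 1018 when voom and that block were combined, and 986 when the correction was undone before blocking (leave-one-out range 260, without KO replicate 4, to 835, without WT replicate 3). For the 10 genes and the other pathway genes the paired analysis by day changed no other call past the criterion. The genotype by clone term was not run with the block. The genotype by clone term had 1 member with an unadjusted p under 0.05, and 0 on untransformed values, with the correction undone and with voom (leave-one-out range 1 to 2, Lefty2 being added without WT replicate 4). No such term can be estimated when KO replicate 4 is left out. Of the 8 pairs, 1 had an adjusted p under 0.05, and 0 with the correction undone, with genotype and clone effects removed (r of Lefty1 and Lefty2 0.94 and 0.93) or with day pairs moved as units, where none can pass. Except where a correction's own construction shows it, the cause was not tested. The fewest reads of the 10 genes were 80 and 93 for Lefty2 (KO replicate 4 and WT replicate 2) and 107 for Acvr2b (WT replicate 2), which limits the precision of these values.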
